A study of Mus musculus with 12 samples.

Results

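The genes of oxidative phosphorylation described here are the 83 symbols, of 23420 listed in both count tables, that name a subunit of 1 of the 5 respiratory complexes by a fixed pattern (Nduf with a subunit letter and number, Sdh, Uqcr, Cox with a subunit number and Atp5). Complex I has 36 of them, complex II 4, complex III 8, complex IV 18 and complex V 17. The pattern reads symbols only. Among the complex IV genes, 3 are the heart and skeletal muscle isoforms *Cox6a2*, *Cox7a1* and *Cox8b*, and 4 are other tissue-restricted isoforms, *Cox4i2*, *Cox6b2*, *Cox7b2* and *Cox8c*. The pattern also takes in 3 genes whose products are not core subunits, *Cox7a2l*, *Atp5s* and *Atp5sl*, and it leaves out subunits with other names, such as *Cyc1* and *Ndufab1*, which are treated apart. *Ndufa4* is counted with complex I after its symbol, although its product is now placed in complex IV.

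The libraries were made from polyadenylated RNA of whole mouse embryos at E12.5 (embryonic day 12.5). In the *Carm1* line (C57BL/6), 3 embryos were homozygous for the tm1Mtb knockout allele and 3 were wild type. In the *Pax3* line (strain given as mixed), 3 embryos were homozygous for the Splotch allele Sp2h and 3 were wild type. Both alleles are carried in every cell, and the counts average over all tissues of an embryo, and in such bulk samples fewer cells of a type and less RNA per cell cannot be told apart. Each group holds 3 libraries, 1 embryo each. The study's methods name intercrosses of heterozygotes, and no source says whether wild types were littermates of the mutants.

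Oxidative phosphorylation passes electrons from NADH through complex I, or from succinate through complex II, to ubiquinone, then through complex III and cytochrome c to complex IV, where oxygen is reduced. Complexes I, III and IV pump protons across the inner mitochondrial membrane, and complex V, the ATP synthase, uses the gradient to make ATP. Each complex has a catalytic core and, except for complex II, many small accessory subunits, and heart and skeletal muscle exchange several complex IV subunits for isoforms of their own.

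The libraries held 17183344 to 23518692 counts. The members took 0.790% to 0.858% of all counts in the *Carm1* line, 0.691% to 0.771% in *Pax3* wild-type and 0.926% to 0.955% in *Pax3* null libraries. Counts of *Carm1* in the *Carm1* null group were 0.501 times those of wild type (edgeR adjusted *P* = 1.2e-15). Counts of *Pax3* fell by 0.43 on the log2 scale in the *Pax3* null group (SE 0.095, adjusted *P* = 1.4e-03), which does not test the lesion itself, since the counts cover the whole gene. The ribosomal RNA gene *Rn45s* took 3.30% to 6.40% of counts in the *Carm1* line, 0.764% to 1.70% in *Pax3* wild-type and 0.374% to 0.381% in *Pax3* null libraries, so that the *Pax3* groups did not overlap in it. Y-linked counts of at least 100 were found in 1 *Carm1* library (wild-type replicate 3) and in 3 *Pax3* libraries (wild-type replicates 2 and 3 and null replicate 3). *Pax3* wild-type replicate 1 had the lowest median level of the members among the 12 libraries.

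Promoters of 4 members are shown because these genes span the range of the results: *Atp5k* rose most in *Pax3* null embryos, *Ndufs6* rose with the smallest adjusted P of complex I, *Ndufa10* had the lowest fold change there, and *Cox7a1* is a muscle isoform that rose. Each window, from RefSeq on GRCm38.p6, runs from 250 bases before to 50 bases after the transcription start and is written 5′ to 3′ on the strand of the gene. Capitals mark matches to the motifs searched, on either strand.
*Atp5k* (chr5:108434350-108434649, minus strand): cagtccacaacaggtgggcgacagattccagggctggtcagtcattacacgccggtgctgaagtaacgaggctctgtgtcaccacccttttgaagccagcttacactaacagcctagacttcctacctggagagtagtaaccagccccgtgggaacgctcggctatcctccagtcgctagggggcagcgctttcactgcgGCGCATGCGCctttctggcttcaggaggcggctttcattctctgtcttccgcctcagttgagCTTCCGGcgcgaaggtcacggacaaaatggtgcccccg
*Ndufs6* (chr13:73328433-73328732, minus strand): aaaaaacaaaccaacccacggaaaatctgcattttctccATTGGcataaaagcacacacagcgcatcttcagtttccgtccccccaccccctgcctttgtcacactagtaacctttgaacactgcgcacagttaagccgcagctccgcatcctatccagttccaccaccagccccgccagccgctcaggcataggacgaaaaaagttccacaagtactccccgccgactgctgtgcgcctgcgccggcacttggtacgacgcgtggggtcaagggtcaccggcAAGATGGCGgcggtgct
*Ndufa10* (chr1:92473709-92474008, minus strand): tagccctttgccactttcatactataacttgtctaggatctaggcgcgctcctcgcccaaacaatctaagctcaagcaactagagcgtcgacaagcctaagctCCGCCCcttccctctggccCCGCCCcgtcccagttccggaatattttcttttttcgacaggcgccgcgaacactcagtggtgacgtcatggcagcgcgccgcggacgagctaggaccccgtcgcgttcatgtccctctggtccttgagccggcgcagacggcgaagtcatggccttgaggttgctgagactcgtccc
*Cox7a1* (chr7:30183921-30184220, plus strand): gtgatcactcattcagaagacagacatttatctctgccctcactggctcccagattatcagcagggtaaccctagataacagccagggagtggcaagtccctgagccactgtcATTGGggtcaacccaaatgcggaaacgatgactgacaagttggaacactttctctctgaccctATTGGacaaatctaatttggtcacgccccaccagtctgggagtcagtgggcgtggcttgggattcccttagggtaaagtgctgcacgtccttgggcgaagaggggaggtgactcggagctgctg

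The *Atp5k* window held the palindromic NRF1 core from position -50, counted from the transcription start, and on the other strand the ETS core CCGGAAG, which appears as CTTCCGG at position 13. The *Ndufs6* window held the YY1 core AAGATGGCG at position 34 and a CCAAT box on the other strand, ATTGG, at position -211. The *Ndufa10* window held 2 GC boxes (GGGCGG, on the other strand CCGCCC), and the *Cox7a1* window 2 CCAAT boxes on the other strand. Windows were found for 66 of the 83 members. The NRF1 core was in 7.6% of the members' windows against 1.1% of the windows of all 27025 genes, the YY1 core in 10.6% against 1.6%, the ETS core in 24.2% against 9.9%, and the ERR element TCAAGGTCA in 3.0% against 0.5%. The GC box (39.4% against 38.2%), the CCAAT box (43.9% against 41.1%), the TATA box TATAAA (10.6% against 15.7%) and the myogenic E-box CAGCTG (9.1% against 18.3%) complete the motifs searched, all on both strands and with overlaps allowed. Among the 54 members with a window that rose in *Pax3* null embryos, the YY1 core was in 13.0% and the ETS core in 27.8%, and among the 9 that did not pass the test in 0.0% and 11.1%. The NRF1 core was in 5.6% and 22.2% of these. A match describes letters in a window and not a bound site.

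All values below are CPM, counts scaled to a common library size with TMM factors, and log2 fold changes are null over wild type. The test of null against wild type in each line was the quasi-likelihood test of edgeR, with *P* values adjusted over all genes tested and a threshold of 0.05. The filter on low counts kept 80 of the 83 members in the *Carm1* line and 79 in the *Pax3* line. *Cox7b2* held at most 2 counts in any library, and *Cox8c* (a testis form) and *Ndufs5* (a complex I accessory subunit) were listed at 0 in all 12. A listed 0 allows up to 3 counts, or 0.175 CPM in the shallowest library. The strand setting and the treatment of multi-mapping reads are not given. Whether the 0 of *Ndufs5*, a subunit that cells use generally, comes from the counting was not tested, and it is not read as absence of its RNA. *Cox8b*, with 2 to 7 counts per library, was not tested in the *Pax3* line.

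In the *Carm1* line the subunit genes as a group stayed at the wild-type level. Of the 80 members tested, 2 rose, against 5.49% of all genes, and 1 fell, against 7.83%. The median log2 fold change was -0.0025 for the members and 0.0014 for all genes. By the separation of the libraries, all 3 null libraries lay above all 3 wild-type libraries for 9 members (14.2% of all genes) and below them for 7 (15.7% of all genes). With offsets for transcript length 1 member was higher and 1 lower (5.90% and 8.48% of all genes), and with offsets for length and GC content 3 and 4 (7.83% and 10.2%).

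The member that fell was *Cox6a2*, the heart and skeletal muscle form of complex IV subunit VIa (chr7:128205435-128206387, GRCm38, minus strand, 3 exons). It measured 4.74, 3.96 and 4.14 CPM in *Carm1* wild-type and 2.85, 2.86 and 2.59 CPM in *Carm1* null embryos. All null libraries lay below all wild-type libraries, on 44 to 52 counts against 80 to 92. Its log2 fold change was -0.62 (SE 0.19, edgeR adjusted *P* = 0.025). The call was lost with DESeq2 (adjusted *P* = 0.087) and without any 1 of wild-type replicate 1 or null replicates 1, 2 and 3 (adjusted *P* 0.065 to 0.090), with log2 fold changes between -0.67 and -0.55 under all alternatives.

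The other muscle isoforms were lower on average in the *Carm1* null group but did not pass the test. *Cox7a1*, the muscle form of subunit VIIa, measured 2.02, 1.63 and 2.10 CPM in wild-type and 1.54, 1.23 and 1.83 CPM in null embryos (log2 fold change -0.32, SE 0.27, edgeR adjusted *P* = 0.51). *Cox8b*, the muscle form of subunit VIII, measured 0.593, 0.688 and 0.780 CPM in wild-type and 0.933, 0.280 and 0.589 CPM in null embryos (-0.20, SE 0.44, adjusted *P* = 0.83). For both genes the groups overlapped. The general forms of the same subunits had log2 fold changes of 0.10 (*Cox6a1*, adjusted *P* = 0.18), -0.04 (*Cox7a2*, 0.65) and -0.03 (*Cox8a*, 0.77), so that the lower level of *Cox6a2* was not shared by its general partner.

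As a share of both forms per transcript length, *Cox6a2* made up 2.23% ± 0.21 of *Cox6a1* plus *Cox6a2* in *Carm1* wild-type and 1.36% ± 0.12 in *Carm1* null embryos (SD, n = 3). The groups did not overlap, which gives the smallest P that an exact two-sided permutation test of 3 against 3 allows, 0.1 (0.25 after adjustment over the 10 isoform shares tested). Skeletal muscle markers moved with it: 10 of 14 tested fell in the *Carm1* line by edgeR, 12 at an unadjusted *P* under 0.05 and 11 by DESeq2. None rose by any of these tests. Their summed level was 736 to 828 CPM in wild-type and 534 to 558 CPM in null libraries. Of these markers, the myofibre genes *Acta1*, *Myl1* and *Mylpf* fell by 0.90, 0.82 and 0.64 on the log2 scale. Cardiac markers fell for 8 of 13 (summed 763 to 807 against 590 to 620 CPM), among them the myofilament genes *Tnnt2*, *Actc1* and *Myl4*, by 0.51, 0.41 and 0.41. In whole-embryo RNA of either line, whether the RNA of these genes came from heart or from skeletal muscle was not tested. Hepatocyte markers fell for 8 of 10 and erythroid markers fell for 6 and rose for 1 of 9. Of all genes in the *Carm1* line 7.83% fell and 5.49% rose. The part of muscle or other tissue content in the level of *Cox6a2* was not tested.

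The 2 members that rose in *Carm1* null embryos did so by small amounts. *Cox5a*, a nuclear-encoded complex IV subunit (chr9:57521274-57532426, plus strand), measured 72.6, 71.6 and 74.2 CPM in wild-type and 91.2, 77.5 and 80.5 CPM in null embryos (log2 fold change 0.19, SE 0.055, edgeR adjusted *P* = 0.016). Its partner in the complex, *Cox5b*, measured 113 ± 3.6 and 113 ± 5.3 CPM (SD, n = 3). *Atp5g2*, one of the 3 genes for the c subunit of the ATP synthase rotor (chr15:102662864-102672352, minus strand), measured 113, 112 and 118 CPM in wild-type and 126, 123 and 129 CPM in null embryos (0.14, SE 0.046, adjusted *P* = 0.038). In both genes all null libraries were above all wild-type libraries. The call of *Cox5a* was lost without wild-type replicate 2 (adjusted *P* = 0.085), without null replicate 1 (0.23) and in one fit of all 12 libraries (0.070). That of *Atp5g2* was lost in 8 of 16 alternatives, with adjusted P between 0.018 and 0.16 over all of them.

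In the *Carm1* line the lowest member of complex IV was *Cox6a2*, at -0.62 as given above. The highest and lowest members of the other complexes lay between -0.16 and 0.15. In complex I the extremes were *Ndufa2* (0.15, adjusted *P* = 0.066) and *Ndufa9* (-0.13, 0.080), both accessory subunits. In complex II they were the membrane anchor *Sdhc* (0.06) and the iron-sulphur subunit *Sdhb* (-0.06), and in complex III the small subunit *Uqcr11* (0.09) and the Rieske protein *Uqcrfs1* (-0.11). In complex V they were *Atp5g2* (0.14), described above, and *Atp5l*, the g subunit (-0.16, adjusted *P* = 0.28). In complex IV the highest was *Cox4i2*, a form of subunit IV made mainly in lung, at 3.14, 2.75 and 2.34 CPM in wild-type and 2.96, 2.80 and 3.89 CPM in null embryos (0.23, SE 0.21, adjusted *P* = 0.53).

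**Figure D1:**
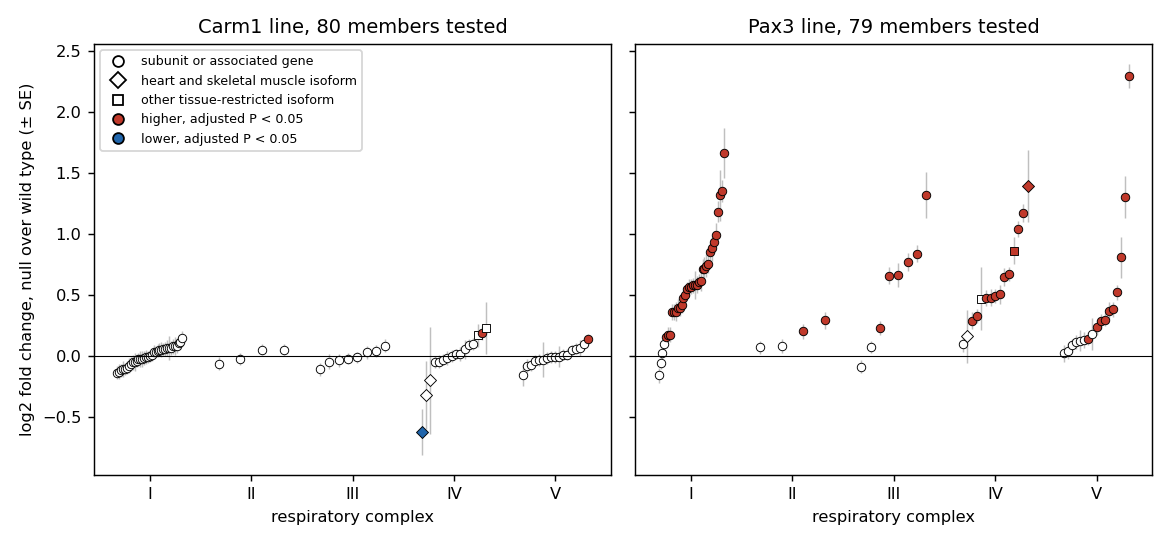
Log2 fold change (null over wild type, ± SE) of each member tested, by respiratory complex (I to V), for the *Carm1* line (left, 80 members) and the *Pax3* line (right, 79 members), with tissue isoforms as diamonds and squares and filled symbols for adjusted *P* under 0.05. In the *Carm1* line *Cox6a2* is the lowest point at -0.62, and in the *Pax3* line *Atp5k* is the highest at 2.29, with 61 filled symbols above 0.

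Most subunit genes were higher in null embryos of the *Pax3* line. Of the 79 members tested, 61 rose, against 14.0% of all genes, and 0 fell, against 10.5%. At an unadjusted *P* under 0.05, edgeR gave 62 higher and 1 lower, and DESeq2 called 59 higher and 0 lower. The median log2 fold change was 0.47 for the members and -0.0026 for all genes. All 3 null libraries lay above all 3 wild-type libraries for 65 members (20.7% of all genes) and below them for 1, *Uqcrc2* (18.9% of all genes). Without wild-type replicate 1, the library with the lowest member levels, 56 members rose and the median was 0.39.

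The highest fold change was that of *Atp5k*, the e subunit of the membrane part of the ATP synthase (chr5:108433244-108434448, GRCm38, minus strand, 3 exons), whose transcript of 272 nt is the shortest of the members. It measured 12.7, 17.7 and 15.1 CPM in *Pax3* wild-type and 65.9, 79.0 and 77.1 CPM in *Pax3* null embryos (log2 fold change 2.29, SE 0.099, edgeR adjusted *P* = 1.3e-12). The *Carm1* line held 42.5 to 51.2 CPM, so that the *Pax3* wild-type libraries lay below and the *Pax3* null libraries above all others. Under the 16 alternatives the log2 fold change stayed between 1.91 and 2.42.

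Complex I, the NADH dehydrogenase, had 31 of 35 members tested higher and a median of 0.57. The highest were accessory subunits. *Ndufa1* (chrX:37187588-37191163, minus strand) measured 8.25, 15.8 and 11.6 CPM in wild-type and 36.1, 39.1 and 37.0 CPM in null embryos (1.66, SE 0.20, edgeR adjusted *P* = 1.8e-03). *Ndufs6* (chr13:73319838-73328542), the zinc-binding subunit, measured 19.0, 22.7 and 23.5 CPM against 59.1, 50.4 and 57.1 CPM (1.35, SE 0.087, adjusted *P* = 1.5e-11). *Ndufa2* (1.32), *Ndufa3* (1.18), *Ndufb2* (0.99), *Ndufc1* (0.93), *Ndufa13* (0.85), *Ndufa8* (0.76) and *Ndufa5* (0.71) followed the same direction, with no overlap of groups in any of them.

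The core subunits of complex I, which carry the flavin and the iron-sulphur clusters, spread more widely. *Ndufv1*, which binds NADH, measured 73.2, 91.1 and 81.5 CPM in wild-type and 119, 121 and 118 CPM in null embryos (0.55, adjusted *P* = 5.6e-07). *Ndufs8* (0.10, adjusted *P* = 0.32), *Ndufv2* (0.03, 0.77) and *Ndufs1* (-0.05, 0.53) did not pass. The lowest member of all was the accessory subunit *Ndufa10* (chr1:92439010-92473860, 10 exons, a transcript of 2020 nt). It measured 94.4, 104 and 110 CPM in wild-type and 92.2, 89.2 and 95.8 CPM in null embryos, with overlapping groups (-0.15, SE 0.060, adjusted *P* = 0.061).

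Complex II, succinate dehydrogenase, has no small accessory subunits, and its median was 0.14. *Sdhd*, a membrane anchor, measured 68.9, 89.5 and 82.9 CPM in wild-type and 98.4, 100 and 97.2 CPM in null embryos (0.29, edgeR adjusted *P* = 3.9e-03). *Sdhb* rose by 0.20 (adjusted *P* = 0.017), a call lost with both kinds of offsets and without wild-type replicate 1 or null replicates 1 or 3 (adjusted *P* 0.060 to 0.68). *Sdhc* (0.09, adjusted *P* = 0.28) and the flavoprotein *Sdha* did not pass the test. *Sdha* measured 203, 222 and 212 CPM against 227, 226 and 217 CPM (0.07, adjusted *P* = 0.33).

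In complex III, cytochrome c reductase, 6 of 8 members rose with a median of 0.66. The small subunits led: *Uqcr11* measured 19.1, 32.1 and 27.8 CPM in wild-type and 65.8, 60.7 and 69.4 CPM in null embryos (1.32, SE 0.19, edgeR adjusted *P* = 5.3e-03), and *Uqcr10* 35.2, 43.4 and 42.4 CPM against 73.5, 71.2 and 71.5 CPM (0.84, SE 0.070, adjusted *P* = 1.7e-09). *Uqcrfs1*, the catalytic Rieske protein, rose by 0.23 (adjusted *P* = 4.4e-03). Its call was lost with length offsets (0.12, adjusted *P* = 0.11) and without null replicate 1 (0.18, adjusted *P* = 0.061). The large core proteins *Uqcrc1* (0.08, adjusted *P* = 0.32) and *Uqcrc2* (-0.09, 0.24) did not pass, and *Uqcrc2* measured 160, 166 and 164 CPM in wild-type and 158, 149.5 and 154 CPM in null embryos.

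In complex IV, cytochrome c oxidase, 10 of 11 members other than tissue isoforms rose with a median of 0.49. *Cox7c* measured 59.7, 75.6 and 76.3 CPM in wild-type and 159, 156 and 162 CPM in null embryos (1.17, SE 0.072, edgeR adjusted *P* = 3.6e-10). *Cox5b* (chr1:36691449-36693681, plus strand) measured 60.2, 74.1 and 73.4 CPM against 146, 139 and 143 CPM (1.04, SE 0.066, adjusted *P* = 2.9e-11). *Cox6a1*, the general form of subunit VIa, rose by 0.67 (SE 0.057, adjusted *P* = 2.3e-09) and *Cox4i1*, the general form of subunit IV, by 0.33 (adjusted *P* = 1.5e-04). The exception was *Cox7a2l*, which helps join complexes III and IV and is no core subunit (0.10, adjusted *P* = 0.27). The call of *Cox4i1* was lost with length offsets (0.10, adjusted *P* = 0.15) and with length and GC offsets (0.027, adjusted *P* = 0.75).

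Complex V had 10 of 17 members higher and a median of 0.24. Behind *Atp5k* came *Atp5e*, the epsilon subunit of the central stalk, at 47.2, 68.6 and 69.7 CPM in wild-type and 152, 142 and 164 CPM in null embryos (1.30, SE 0.17, edgeR adjusted *P* = 6.8e-03). The large catalytic subunits, which are also the most abundant members, did not pass. *Atp5a1*, the alpha subunit, measured 780, 872 and 806 CPM in wild-type and 826, 853 and 821 CPM in null embryos (0.02, SE 0.068, adjusted *P* = 0.83), and *Atp5b*, the beta subunit, had a log2 fold change of 0.14 (SE 0.066, adjusted *P* = 0.13). The genes for the c subunit, which encode the same mature protein, differed among themselves: *Atp5g3* rose by 0.81 (adjusted *P* = 0.030), *Atp5g1* by 0.37 (2.1e-04), and *Atp5g2* measured 116, 134 and 145 CPM against 132, 141 and 135 CPM (0.04, adjusted *P* = 0.69). The call of *Atp5g3* was lost in 6 of 16 alternatives, among them leaving out wild-type replicate 3 or any null replicate (adjusted *P* 0.051 to 0.10), and that of *Atp5g1* with both kinds of offsets (0.14 with length offsets, adjusted *P* = 0.088).

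**Figure D2:**
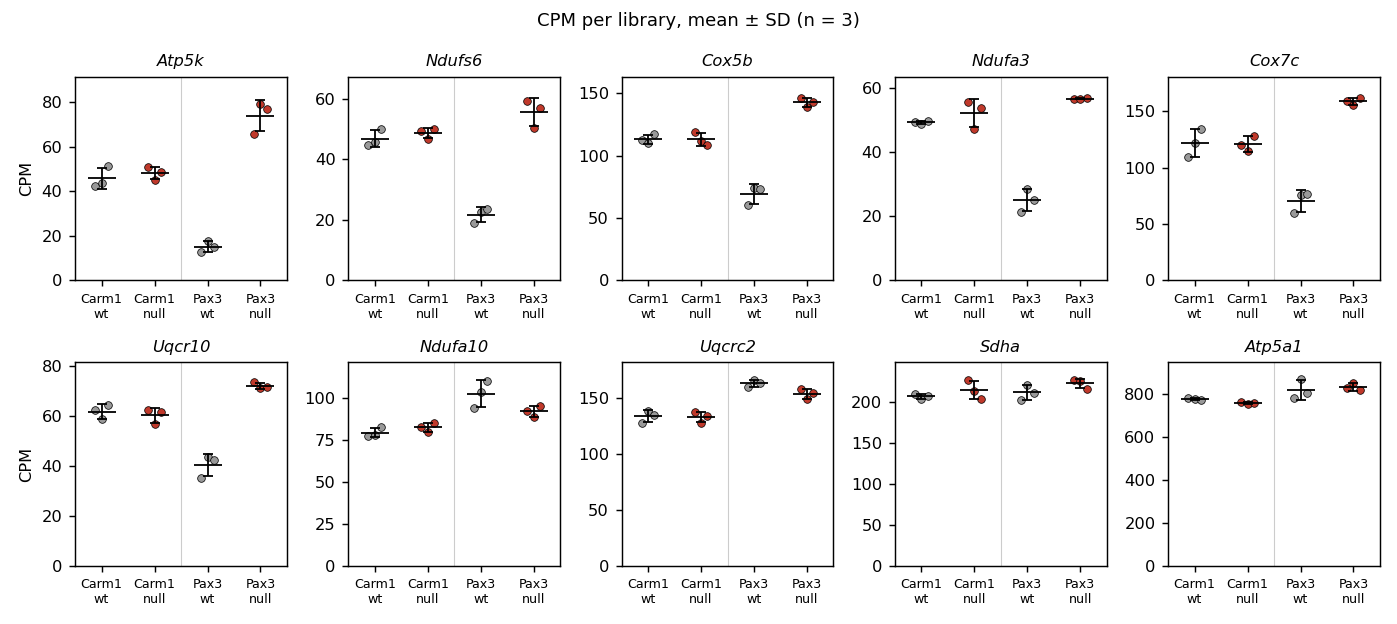
CPM of 10 members in each of the 12 libraries (points), with the mean and SD of each group (bars, n = 3), for wild-type (wt, grey) and null (red) embryos of both lines, each axis starting at 0. *Atp5k*, *Ndufs6*, *Cox5b*, *Ndufa3*, *Cox7c* and *Uqcr10* are low in *Pax3* wild-type libraries and high in *Pax3* null libraries, while *Ndufa10*, *Uqcrc2*, *Sdha* and *Atp5a1* did not pass the test in either line.

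The muscle isoforms did not move together in the *Pax3* line. *Cox7a1* (chr7:30184144-30186078, plus strand, 4 exons) measured 0.634, 0.753 and 0.816 CPM in wild-type and 1.52, 2.09 and 2.21 CPM in null embryos, on 13 to 19 against 34 to 52 counts (log2 fold change 1.39, SE 0.30, edgeR adjusted *P* = 1.1e-03). The call held under all 16 alternatives, with log2 fold changes of 1.06 to 1.54. *Cox6a2* measured 2.20, 1.85 and 2.36 CPM in wild-type and 2.55, 2.19 and 2.50 CPM in null embryos, with overlapping groups (0.16, SE 0.22, adjusted *P* = 0.63). Of the other tissue isoforms, *Cox6b2*, best known from testis, rose from 8.39, 11.5 and 9.84 CPM to 18.7, 18.3 and 17.0 CPM (0.86, SE 0.11, adjusted *P* = 1.4e-06), and *Cox4i2* measured 1.37, 1.62 and 2.79 CPM against 1.88, 3.19 and 3.10 CPM (0.47, SE 0.26, adjusted *P* = 0.20).

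Per length, *Cox7a1* made up 2.06% ± 0.14 of *Cox7a1* plus *Cox7a2* in *Pax3* wild-type and 3.74% ± 0.65 in *Pax3* null embryos, *Cox6b2* 7.76% ± 0.76 and 9.94% ± 0.91 of both Cox6b forms, and *Cox6a2* 1.37% ± 0.17 and 0.973% ± 0.046 of both Cox6a forms (SD, n = 3). In each of these 3 shares the groups did not overlap (exact permutation test, *P* = 0.1, the smallest possible, adjusted 0.25). The share of *Cox6a2* was thus lower in null embryos of both lines, in the *Carm1* line with a lower level of *Cox6a2* itself and in the *Pax3* line with a higher level of *Cox6a1*. Skeletal muscle markers fell for 8 of 14 in the *Pax3* line by edgeR, for 9 at an unadjusted *P* under 0.05 and for 8 by DESeq2. None rose by any of these tests. Their summed level was 383 to 439 CPM in wild-type and 245 to 271 CPM in null libraries, and *Myl1* fell by 0.87. Cardiac markers rose for 8 of 13 and fell for 1, *Actc1* (by 0.60), with overlapping summed levels of 576 to 629 and 584 to 681 CPM. With length offsets 5 cardiac markers were higher and 2 lower, and with length and GC offsets 4 and 1. Of the hepatocyte markers 2 rose and 2 fell, and of the 9 erythroid markers 0 passed, by edgeR unadjusted or adjusted and by DESeq2. Of all genes in the *Pax3* line 14.0% rose and 10.5% fell. The part of any tissue in the level of *Cox7a1* was not tested.

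**Figure D3:**
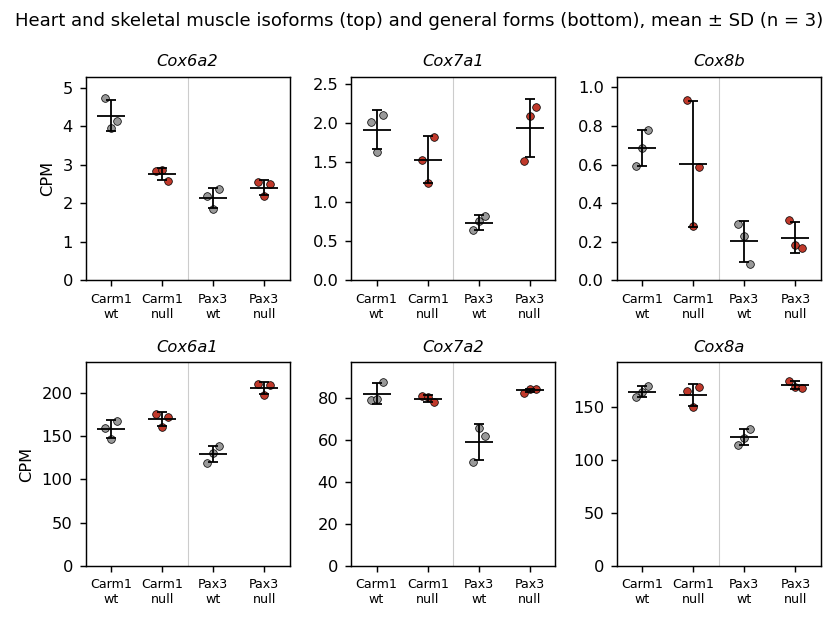
CPM of the 3 heart and skeletal muscle isoforms (top) and of their general forms (bottom) in each of the 12 libraries (points), with mean and SD (bars, n = 3), each axis starting at 0. *Cox6a2* is lower in the 3 *Carm1* null libraries than in their wild types, *Cox7a1* is higher in the 3 *Pax3* null libraries than in theirs, and the groups of *Cox8b* overlap in both lines.

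The members are short: their transcripts have a median of 659 nt, against 2450 nt for all genes tested. The size of the change followed the length in the *Pax3* line. Under 600 nt, 29 of 30 members rose (median log2 fold change 0.74), from 600 to under 1000 nt 21 of 27 (0.47), from 1000 to under 2000 nt 11 of 18 (0.18) and from 2000 to under 4000 nt 0 of 4 (-0.01). The same order held for the other genes, with smaller medians of 0.26, 0.17, 0.07 and -0.03, and -0.09 from 4000 nt on. Of the other genes under 600 nt, 31.7% rose and 3.24% fell. From 600 to under 1000 nt these shares were 32.4% and 3.48%, and from 1000 to under 2000 nt 19.3% and 4.74%. From 2000 to under 4000 nt 9.28% of the other genes rose and 10.6% fell. Across members, the log2 fold change had a Pearson correlation of -0.65 and a Spearman correlation of -0.67 with log2 length (n = 79), and across other genes of -0.34 and -0.35 (n = 15526). These describe genes measured in the same 6 libraries, which are not independent. In the *Carm1* line the correlations for the members had the same sign and were weaker, -0.10 and -0.24 (n = 80).

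With offsets that remove, in each library, the trend with transcript length, 43 of the 79 members were higher and 3 lower in *Pax3* null embryos, against 11.0% and 10.4% of all genes, and the members' median was 0.25. With offsets for length and GC content together, 45 were higher and 2 lower (9.73% and 7.21% of all genes), with a median of 0.26. With length and GC offsets 25 of 35 were higher in complex I, 2 of 4 in complex II, 6 of 8 in complex III, 7 of 11 in complex IV and 3 of 17 in complex V. With length offsets alone these numbers were 24, 0, 5, 8 and 4. The 2 of complex II were *Sdhd* and *Sdha* with length and GC offsets (*Sdha* at 0.15, adjusted *P* = 0.019), whereas *Sdhb* lost its call (0.037, adjusted *P* = 0.68). Under 600 nt 25 of 30 members were then higher and 1 lower, where 15.8% of other genes were higher and 16.4% lower. *Atp5k* (1.91), *Ndufa1* (1.46), *Ndufa2* (1.10), *Cox7a1* (1.06), *Ndufs6* (1.06) and *Cox7c* (1.004) stayed above 1. *Atp5g2* turned from 0.04 to -0.32 (adjusted *P* = 7.1e-05), and *Ndufa10* passed the threshold at -0.15 (0.049). The origin of the length trend was not tested.

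**Figure D4:**
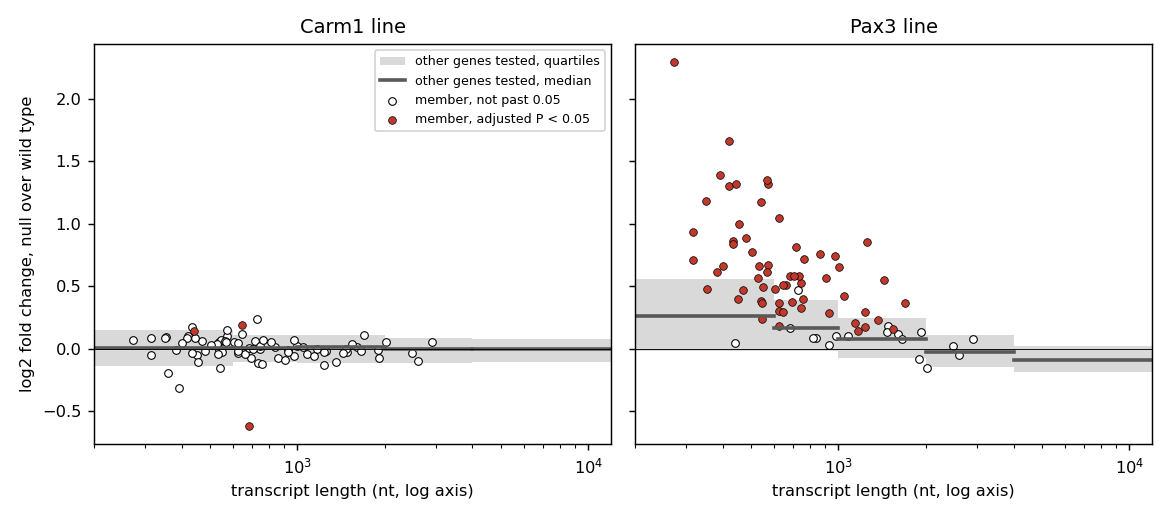
Log2 fold change (null over wild type) of each member tested against its transcript length (nt, log axis) in the *Carm1* line (left) and the *Pax3* line (right), over the median (line) and quartiles (grey) of all other genes tested in 5 length classes. In the *Pax3* line the members' median falls from 0.74 under 600 nt to -0.01 from 2000 to under 4000 nt, and in the *Carm1* line the members' medians are 0.05, -0.0034, -0.018 and 0.0096 in the same 4 classes.

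Set on one scale over all 12 libraries, the *Pax3* wild-type libraries lay below and the *Pax3* null libraries above the range of the *Carm1* line. The median deviation of the members from their mean over the 12 libraries was -0.41, -0.23 and -0.19 (log2) in *Pax3* wild-type replicates 1, 2 and 3, 0.16 to 0.22 in *Pax3* null and -0.01 to 0.11 in the *Carm1* line. For 673 other genes under 600 nt the same medians were -0.26, -0.19 and -0.17 in *Pax3* wild-type, 0.04 to 0.06 in *Pax3* null and 0.06 to 0.15 in *Carm1* libraries. The wild types of the *Pax3* line thus lay below the *Carm1* wild types, in embryos of another strain. The study's methods place the *Pax3* colony in another laboratory, so strain, laboratory and line cannot be told apart. The part of the short-gene level and of ribosomal RNA in the change of the members was not tested.

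**Figure D5:**
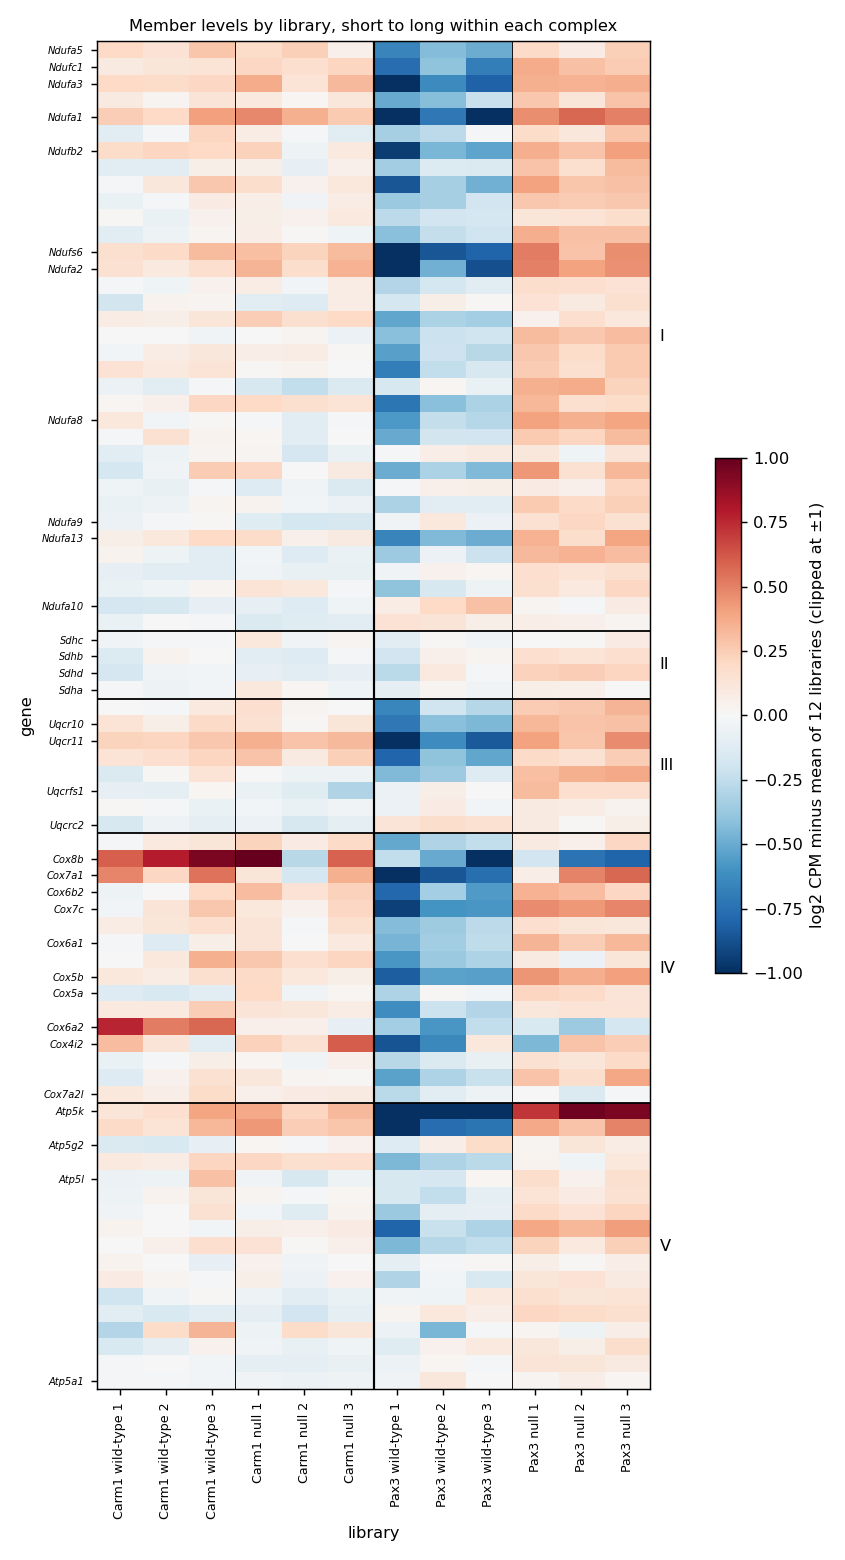
Log2 CPM of 80 members in each of the 12 libraries minus the gene's mean over them (colour, clipped at 1 in either direction), with genes ordered by complex and from short to long within it and symbols given for the genes chosen by the naming rule. The 3 *Pax3* wild-type columns are blue for most genes and the 3 *Pax3* null columns red, most of all at the short end of each complex, and *Pax3* wild-type replicate 1 is the deepest blue.

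The changes of the 2 lines were compared by an interaction term in one fit of all 12 libraries. For 57 of 80 members the *Carm1* change was below the *Pax3* change (10.5% of all genes), and for 1 above it (8.65%). The exception was *Ndufa10*, by 0.22 (SE 0.078, edgeR adjusted *P* = 0.044). Both directions together held 58 members, against 43 with length offsets and 52 with length and GC offsets. Of the 16292 genes tested, 1503 were below and 1399 above with length offsets, and 1508 and 1171 with length and GC offsets. *Ndufs6* differed by -1.29 (SE 0.10, adjusted *P* = 2.4e-10) and *Cox5b* by -1.03 (SE 0.083, 2.7e-10). Among the muscle isoforms, the difference was -1.70 for *Cox7a1* (adjusted *P* = 2.2e-03) and -0.77 for *Cox6a2* (0.042), the latter called in 7 of 21 alternatives.

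Genes that work with the subunits were taken from lists written by hand. Of the 6 subunits and subunit-like genes outside the symbol pattern, 4 rose in the *Pax3* line (3 with length offsets, 4 with length and GC offsets). Among them *2010107E04Rik*, a small ATP synthase component, rose by 0.98, the ATPase inhibitor *Atpif1* by 0.66 and *Usmg5*, also of the ATP synthase, by 0.46. None passed in the *Carm1* line by edgeR or DESeq2, and 1 was lower at an unadjusted *P* under 0.05. Of 39 assembly factors tested, 11 rose and 1 fell in the *Pax3* line (28.2% and 2.56%, against 14.0% and 10.5% of all genes), with 7 higher and 3 lower under length offsets, and none passed in the *Carm1* line (unadjusted, 4 higher and 1 lower, and 0 by DESeq2). Those with the smallest adjusted P were the complex IV factors *Pet100* (1.57), the copper carrier *Cox17* (1.09) and *Cox14* (0.91). Of the 4 electron carriers, the flavoproteins *Etfb* (0.48) and *Etfa* (0.22) and cytochrome c (*Cycs*, 0.19) rose in the *Pax3* line. With length offsets 2 carriers were higher there, and with length and GC offsets 3. None passed in the *Carm1* line by edgeR or DESeq2, with 1 lower at an unadjusted *P* under 0.05.

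Of the 13 enzymes of the citric acid cycle, which feeds the chain with NADH, 1 rose and 1 fell in the *Pax3* line, *Idh3b* (0.27) and *Ogdh* (-0.25, edgeR adjusted *P* = 1.5e-03). Each is 7.69% of the list, below the 14.0% and 10.5% of all genes, and with length and GC offsets 3 were higher and 3 lower. *Ogdh* also fell in the *Carm1* line by edgeR (-0.13, adjusted *P* = 0.044), a call that DESeq2 did not make. Of 11 regulators of nuclear mitochondrial genes tested, the coactivator *Ppargc1a* fell in the *Carm1* line, from 9.52 ± 1.07 to 7.01 ± 0.05 CPM (-0.45, SE 0.13, adjusted *P* = 0.015), a call also not made by DESeq2. Among regulators in the *Pax3* line 2 rose and 3 fell (18.2% and 27.3%), among them the nuclear receptor *Esrra* (0.49), the ETS factor subunit *Gabpa* (-0.20) and the mitochondrial transcription factor *Tfb2m* (-0.30). The 13 subunits encoded by mitochondrial DNA were not analysed here.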

How the data were processed

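RNA of 12 whole mouse embryos at E12.5, 1 library each, was analysed in 4 groups of 3 given by the genotype labels. The authors selected polyadenylated RNA, sequenced it in pairs, used STAR for alignment to mm10 and featureCounts for exon counts. The deposited tables hold whole-number counts per gene and library, neither normalized nor pooled. Tool versions, strand setting and the treatment of multi-mapping reads are not given in the sources used here, and many subunit genes have processed copies elsewhere in the genome, so that counts of short members are uncertain in this respect.

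Counts were tested in each line in R 4.3.3 with edgeR 4.0.16, using its robust quasi-likelihood test after TMM normalization and filterByExpr, with Benjamini-Hochberg adjustment at 0.05. The study's methods name DESeq2 (here version 1.42.0), which served as an alternative. The line difference was an interaction in one fit of 12 libraries. Other alternatives were RLE and upper-quartile factors, no filter, at least 10 counts in every library, one fit of 12 libraries, the replicate number as a block, a term for libraries with at least 100 Y-linked counts, offsets for length or for length and GC content (splines with 5 degrees of freedom, fitted to each library), and leaving out each library. The steps were also run on simulated counts, with the same dispersion (spread between replicates) for all genes. For the offsets, a length trend was put on the null libraries only. These settings are simpler than the data, so the simulation does not test the offset results given here.

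Symbols were matched to GENCODE M21 on GRCm38, the build of mm10, for positions, exons and transcript length (lower median over a gene's basic protein-coding transcripts): 21777 as written, 1275 through an older symbol and 368 not matched. Promoters came from RefSeq. Isoform shares used CPM per kb and an exact two-sided permutation test. Log2 CPM of replicates correlated at 0.989 to 0.995. Nothing says that same-numbered embryos are related, and *P* values measure the spread between these embryos.

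The members, gene lists, named genes and alternatives were chosen with earlier results of these data known. Named were all tissue isoforms, the 10 members with the smallest adjusted P in each direction and line, the extremes of each complex, 10 members of the line difference, the targeted genes and up to 3 genes per other list and line. *Ndufv1*, *Ndufs1*, *Ndufs8*, *Ndufv2*, *Ndufb5*, *Ndufb7*, *Uqcrc1*, *Atp5b*, *Atp5d*, *Atp5e*, *Atp5g1*, *Atp5g3*, *Cox4i1*, *Cox7a2* and *Cox8a* were added after their values were seen, for their roles in the complexes or for a change of sign.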

Additional observations from a re-analysis of the deposited data

Results flagged for a closer look

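The change between null and wild type differed between the 2 lines for 58 of 80 members by the interaction test of edgeR, which compares the changes directly. Of all genes, the *Carm1* change was below the *Pax3* change for 10.5% and above it for 8.65%. The 10 members with the smallest adjusted P were of complexes I, III, IV and V. The *Carm1* change minus the *Pax3* change, on the log2 scale, was -1.29 for *Ndufs6*, -1.03 for *Cox5b*, -2.21 for *Atp5k*, -1.09 for *Ndufa3* and -0.86 for *Uqcr10* (SE 0.083 to 0.13, adjusted P at most 5.5e-08). It was -0.86 for *Ndufa13*, -0.82 for *Ndufa8*, -1.09 for *Ndufb2*, -0.84 for *Ndufc1* and -0.75 for *Ndufa5* (SE 0.093 to 0.12, adjusted P at most 1.3e-06). For all 10, the *Carm1* line alone gave log2 fold changes between -0.10 and 0.08 that did not pass the test.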

How the results depend on the processing

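Each line was run under 16 alternatives and the line difference under 21. In the *Pax3* line the number of higher members stayed within 1.5 times 61 in all of them and was 53 to 60 when a library was left out. Of the 61, 40 were called in all 16 alternatives and 21 lost their call in at least 1, among them *Ndufa2*, without wild-type replicate 3 (adjusted *P* = 0.063) and with the replicate block (0.056). The median log2 fold change of 0.47 fell to 0.25 with length offsets and 0.26 with length and GC offsets, and was 0.39 to 0.54 without 1 library. The number of lower members, 0, became 1 in one fit of 12 libraries, 3 with length offsets and 2 with length and GC offsets, and was 0 to 1 without 1 library (1 without wild-type replicate 1). Fewer members were called with offsets, which remove the trend with length by construction. The part of that removal in the lost calls was not tested.

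In the *Carm1* line, where 2 members were higher and 1 lower, the counts were small and moved. Higher members were 1 with DESeq2, 0 in one fit of 12 libraries, 5 with the Y-linked term and 1 with length offsets, and 0 to 5 without 1 library (0 without wild-type replicate 2 or null replicate 1, and 5 without wild-type replicate 3, which holds the Y-linked counts). Lower members were 0 with DESeq2, 2 without the low-count filter and 4 with length and GC offsets, and 0 to 1 without 1 library (0 without any of the 3 null replicates). The cause was not tested. In the line difference, the members with a *Carm1* change above the *Pax3* change, 1 at first, were 0 with DESeq2, 3 with length and GC offsets and 2 with length offsets, and 0 to 1 without 1 library (1 without *Carm1* wild-type replicate 3, *Pax3* wild-type replicate 1 or *Pax3* null replicate 3, and 0 without any other).

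With the replicate number as a block, 1 member was higher and 1 lower in the *Carm1* line, and 59 were higher and 1 lower in the *Pax3* line. Same-numbered libraries did not deviate together throughout, with correlations of -0.041, 0.00082 and -0.042 in the *Carm1* line and 0.13, -0.092 and 0.23 in the *Pax3* line, and not every library correlated best with its own number. The numbers were therefore not read as pairs.

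Changes of sign fell mostly on values that did not pass the test. With the Y-linked term the *Carm1* log2 fold change became 0.059 for *Cox7c*, 0.000527 for *Uqcr10*, 0.023 for *Ndufa13* and 0.000235 for *Sdhd*. *Cox5b* became -0.000493 with at least 10 counts in every library, -0.020 with length and GC offsets and -0.017 with length offsets. When 1 library was left out, the *Carm1* values ranged from -0.67 to 0.15 for *Cox8b*, -0.035 to 0.031 for *Cox5b*, -0.082 to 0.059 for *Cox7c*, -0.069 to 0.00768 for *Uqcr10*, -0.054 to 0.023 for *Ndufa13*, -0.066 to 0.000266 for *Sdhd*, -0.039 to 0.020 for *Uqcrc2* and -0.091 to 0.000873 for *Ndufa5*. Length offsets gave *Pax3* values of -0.077 for *Cox6a2*, -0.13 for *Sdhc*, -0.036 for *Atp5l* and -0.063 for *Cox7a2l*, and length and GC offsets -0.047 for *Cox6a2* and -0.13 for *Sdhc*. Of these *Atp5l* had passed the test before the offsets, at 0.24. So had 3 other members that turned below 0: *Atp5d* (0.28, to -0.029) and *Ndufb7* (0.36, to -0.0018) with length and GC offsets, and *Ndufb5* (0.18, to -0.076) with length offsets. None of these 4 passed the test below 0. *Atp5g2* passed it after them, at -0.26 with length offsets (adjusted *P* = 9.3e-04) and -0.32 with length and GC offsets (7.1e-05). Without 1 library, *Atp5g2* ranged from -0.043 to 0.12 and *Atp5a1* from -0.00926 to 0.077 in the *Pax3* line.

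With 3 libraries in a group a single gene cannot fall below *P* = 0.1 in an exact test. The tissue isoforms other than *Cox6b2* held no more than 92 counts per library. Those tested had wider errors than all members outside the tissue isoforms, whose SE was at most 0.14 (*Carm1* line) and 0.21 (*Pax3* line). The SE of *Cox6b2* was 0.095 and 0.11.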
